A study of Rattus norvegicus with 10 samples.

Results

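Ionotropic glutamate receptors are the cation channels that carry most fast excitatory transmission in the cortex, and they were examined here through 10 subunit genes of the NMDA, AMPA and kainate classes. The genes were chosen as 5 NMDA subunits (Grin1, Grin2a, Grin2b, Grin2c and Grin2d), 3 AMPA subunits (Gria1, Gria2 and Gria3) and 2 kainate subunits (Grik4 and Grik5), and each was read from a probe set whose annotation lists its symbol alone. Of the 10 genes, 8 had such a probe set, 1 each, among 18511 single-symbol probe sets on the array. Gria1 was listed for no probe set and Gria2 for 1 probe set only, together with other symbols, so neither was measured here and Gria3 was the only AMPA subunit among the measured genes.

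RNA came from the left cortex of 10 adult male Sprague-Dawley rats, taken 3 hours after surgery and hybridised to 1 Affymetrix Rat Gene 2.0 ST array per animal. Sham rats (n = 4) had the surgery without a filament in the internal carotid artery. MCAO rats (n = 3) had a permanent occlusion of the left middle cerebral artery by an intraluminal filament and received vehicle, and MCAO+NRG1 rats (n = 3) had the same occlusion and received neuregulin-1, a growth factor that signals through ErbB receptors, with both agents given immediately before the occlusion. No group of rats with neuregulin-1 and sham surgery was part of the comparison, so values of MCAO+NRG1 against sham hold the occlusion and the treatment together. The study describes no injection in sham rats, so MCAO against sham may hold the vehicle injection beside the occlusion. Values are log2 RMA levels, a background-corrected, normalized summary of the probes of a gene.

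A functional NMDA receptor needs the GluN1 subunit, which binds glycine or D-serine, together with GluN2 subunits, which bind glutamate and set how long the channel stays open. AMPA receptors carry the fast part of the synaptic current, and kainate receptors tune release and excitability on both sides of the synapse. Glutamate released during ischemia overactivates these channels, and calcium entry through NMDA receptors is the best known route of excitotoxic death of neurons.

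All 8 probe sets lay above the background level of 4.64 log2, the 95th percentile of 1359 olfactory and vomeronasal receptor probe sets, which 68.3% of the single-symbol probe sets exceeded. The median of an array over the single-symbol probe sets lay between 6.05 and 6.11 log2 in sham, at 5.80, 5.82 and 6.12 in MCAO and between 5.79 and 5.81 in MCAO+NRG1. MCAO 3 therefore had a level like sham, whereas the other 5 occluded arrays lay lower. Results are given on the deposited scale, and those of the subunit genes also with every array centred on its own median, which raised the median of all probe sets by 0.16 log2 in MCAO minus sham, by 0.27 in MCAO+NRG1 minus sham and by 0.11 in MCAO+NRG1 minus MCAO. Whether the offset of the arrays is a property of the tissue or of the arrays was not tested. In bulk tissue, fewer cells of a type and less RNA per cell cannot be told apart.

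Grik5 was the subunit gene with the clearest difference between the occluded and the sham cortex. Its 250 bases before the RefSeq start site are shown first, with those of Grin2c and Grin2d, because these were the 3 genes that passed the test in at least 1 comparison. The bases come from the RefSeq promoter table of the GRCr8 assembly, in which 5 of the 10 genes had an entry (Grin1, Grin2c, Grin2d, Grik4 and Grik5), and all 3 genes lie on the minus strand. A match to the GC box, the motif of Sp family factors, is in capitals.
Grik5, chr1:89794910-89795159: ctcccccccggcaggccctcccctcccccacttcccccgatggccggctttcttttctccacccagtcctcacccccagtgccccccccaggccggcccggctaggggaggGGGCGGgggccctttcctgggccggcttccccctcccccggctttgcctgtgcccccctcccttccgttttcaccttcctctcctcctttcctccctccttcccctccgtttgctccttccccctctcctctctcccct
Grin2c, chr10:101005139-101005388: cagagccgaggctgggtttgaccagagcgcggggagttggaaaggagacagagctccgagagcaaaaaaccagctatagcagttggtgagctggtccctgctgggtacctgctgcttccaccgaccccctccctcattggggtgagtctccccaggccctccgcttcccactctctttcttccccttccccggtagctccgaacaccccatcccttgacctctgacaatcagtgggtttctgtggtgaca
Grin2d, chr1:105481237-105481486: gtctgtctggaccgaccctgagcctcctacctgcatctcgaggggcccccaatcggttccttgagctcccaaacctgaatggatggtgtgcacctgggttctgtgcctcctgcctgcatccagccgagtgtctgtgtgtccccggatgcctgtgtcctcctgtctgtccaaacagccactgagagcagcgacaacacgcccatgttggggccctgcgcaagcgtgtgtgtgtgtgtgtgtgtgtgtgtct
Each of the 3 windows lies within the span that the annotation gives its gene, so transcripts that start further upstream are also annotated. The Grik5 window held 70.8% G and C, above 92.8% of all 33465 windows, against a median of 51.2%, and the Grin2c and Grin2d windows held 59.6% and 60.4%. On either strand, the GC box (GGGCGG) was found once in Grik5 and in none of the other 4 windows, and 30.5% of all windows of this length hold it. The ETS core (CCGGAA, in 12.6% of all windows), the AP-1 motif (TGANTCA, in 6.34%) and the CRE (TGACGTCA, in 1.59%) were found in none of the 5 windows. The motifs were picked after the expression values were known, they do not overlap in these windows, and a match describes the letters alone.

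The 2 kainate subunits measured here, Grik4 and Grik5, encode GluK4 and GluK5, the high-affinity subunits that form channels only together with other kainate subunits. Grik5 measured 9.05, 9.36, 9.36 and 9.47 log2 in the 4 sham arrays, 8.31, 8.68 and 8.77 in the 3 MCAO arrays and 8.13, 8.61 and 8.75 in the 3 MCAO+NRG1 arrays. Every occluded array, with or without NRG1, lay below the lowest sham array, and the values of both occluded groups were interleaved. Following MCAO, Grik5 fell by 0.72 ± 0.18 log2 (SE), which is 1.65-fold, with an adjusted p of 0.0332 in limma with Benjamini-Hochberg adjustment over all probe sets tested (n = 4 and 3). It was the 1 of 8 measured subunits that passed this test, where 5.61% of all probe sets were called lower, 1.1% higher and 6.7% in either direction. In MCAO+NRG1 against the same sham arrays Grik5 fell by 0.81 ± 0.18 log2, or 1.76-fold (limma adjusted p = 0.0125). The study listed Grik5 among genes it selected on these same arrays, so that its inclusion there is not independent of these values.

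The Grik5 call depended on the scale and on single arrays. With arrays centred on their medians, the differences were −0.56 ± 0.18 log2 for MCAO (limma adjusted p = 0.0841) and −0.55 ± 0.18 for MCAO+NRG1 (limma adjusted p = 0.0776), and the MCAO arrays still lay below every sham array whereas the MCAO+NRG1 arrays overlapped them. The MCAO call was lost without sham 2, sham 3, sham 4, MCAO 1 or MCAO 2, with limma adjusted p of 0.0961, 0.0874, 0.0990, 0.133 and 0.0733 and differences between −0.77 and −0.58 log2. Over all 18511 probe sets the MCAO calls fell from 1241 to 103, 205, 102 and 163 without sham 2, sham 3, sham 4 and MCAO 1. The MCAO+NRG1 call was lost without MCAO+NRG1 1 alone, at −0.63 log2 and a limma adjusted p of 0.0619. MCAO 3, the occluded array with a level like sham, measured 8.77 for Grik5 and so lay below the sham arrays on the deposited scale.

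**Figure D1:**
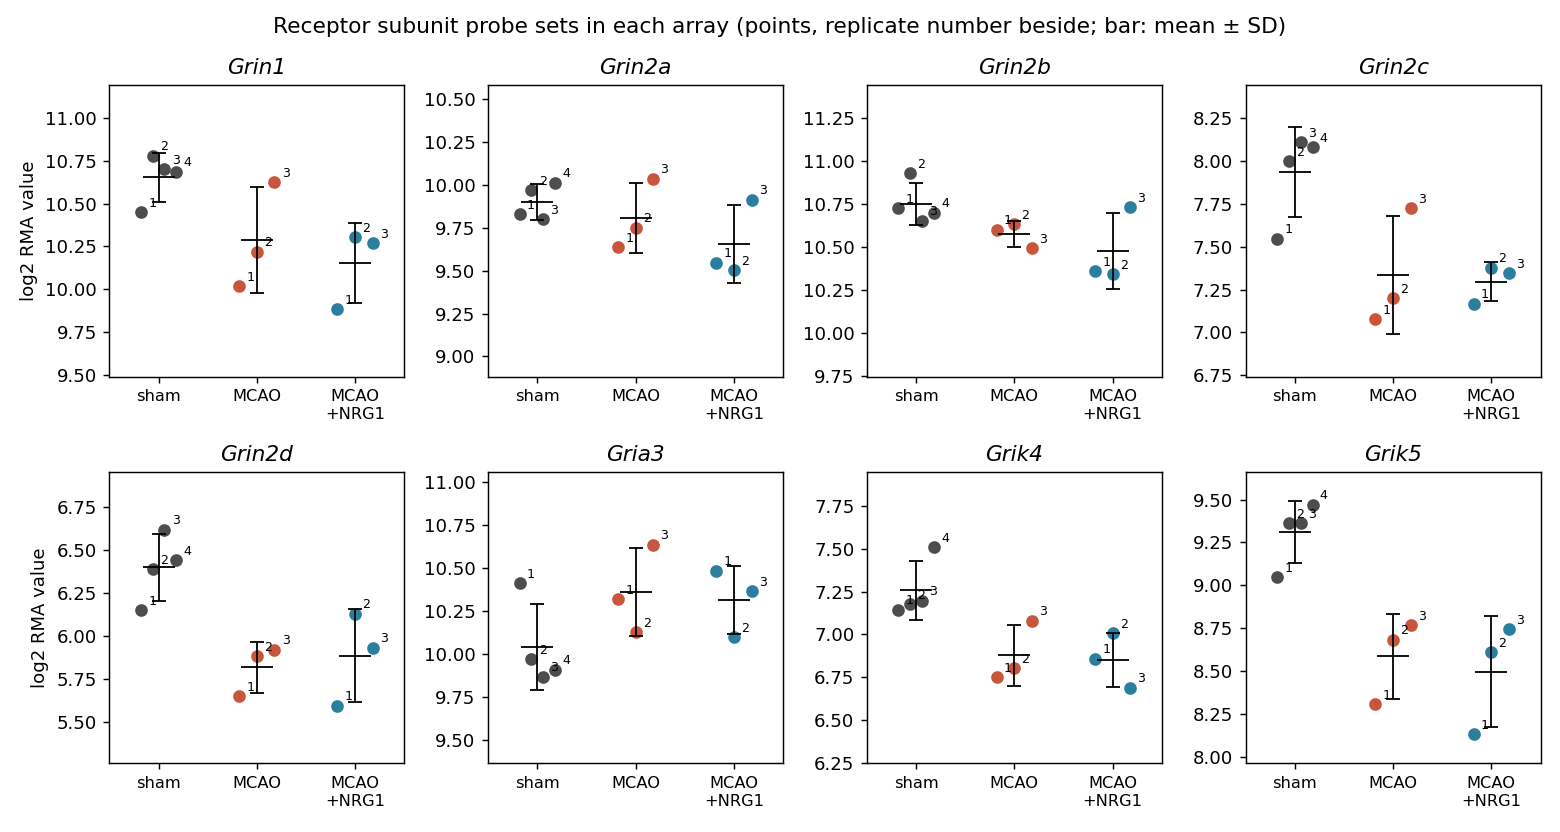
log2 RMA value (y axis, with its own range in each panel) of the 8 measured subunit probe sets in every array, by group (x axis: sham, n = 4, MCAO, n = 3, and MCAO+NRG1, n = 3). Points are animals with their replicate number beside them, and bars give the mean ± SD. For Grik5 every occluded array lies below the lowest sham array at 9.05, whereas Gria3 has its highest value, 10.64, in MCAO 3.

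Grik4 lay lower in the occluded groups by a smaller margin. It measured 7.14, 7.18, 7.20 and 7.51 log2 in sham, 6.75, 6.80 and 7.08 in MCAO and, with NRG1, 6.86, 7.01 and 6.69. All 6 occluded arrays lay below the lowest sham array. The differences from sham were −0.38 ± 0.16 log2 for MCAO (limma adjusted p = 0.134) and −0.41 ± 0.16 for MCAO+NRG1 (limma adjusted p = 0.0838), and neither passed the test. On the centred scale they were −0.22 ± 0.14 and −0.14 ± 0.14 (limma adjusted p = 0.349 and 0.557), and the MCAO+NRG1 arrays overlapped sham. Without MCAO 3 both passed, at −0.48 and −0.41 log2 (limma adjusted p = 0.0486 and 0.0457).

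Grin1, the gene of the obligatory GluN1 subunit, measured 10.45, 10.78, 10.70 and 10.69 log2 in sham, 10.02, 10.22 and 10.63 in MCAO and, with NRG1, 9.89, 10.30 and 10.27. The MCAO arrays overlapped sham through MCAO 3 alone, and the MCAO+NRG1 arrays lay below every sham array. The difference was −0.37 ± 0.18 log2 for MCAO (limma adjusted p = 0.182) and −0.50 ± 0.18 for MCAO+NRG1 (limma adjusted p = 0.0603). After centring of the arrays these were −0.21 ± 0.15 and −0.23 ± 0.15 (limma adjusted p = 0.419 and 0.351), and both occluded groups overlapped sham. Without MCAO 3, Grin1 passed in MCAO against sham, at −0.53 log2 and a limma adjusted p of 0.0418. In MCAO+NRG1 it passed without sham 1 or without MCAO 3, at −0.57 and −0.50 log2 and with limma adjusted p of 0.0351 and 0.0267.

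Grin2a and Grin2b, the genes of the main GluN2 subunits of the adult forebrain, showed the smallest differences from sham among the NMDA subunits. Grin2a measured 9.83, 9.97, 9.80 and 10.01 log2 in sham, 9.63, 9.75 and 10.04 in MCAO and, with NRG1, 9.55, 9.50 and 9.91. Grin2b measured 10.73, 10.93, 10.65 and 10.70 log2 in sham, 10.60, 10.63 and 10.49 in MCAO and, with NRG1, 10.36, 10.34 and 10.73. For Grin2a both occluded groups overlapped sham, and for Grin2b the MCAO arrays lay just below the lowest sham array while MCAO+NRG1 3 reached the sham values. The difference in MCAO was −0.10 ± 0.16 log2 for Grin2a (95% interval −0.44 to 0.25, limma adjusted p = 0.718). For Grin2b it was −0.18 ± 0.15 log2 (95% interval −0.50 to 0.15, limma adjusted p = 0.460). In MCAO+NRG1 the differences from sham were −0.25 ± 0.16 log2 for Grin2a and −0.28 ± 0.15 for Grin2b (limma adjusted p = 0.279 and 0.206). With arrays centred on their medians both genes lay within 0.064 log2 of sham in both comparisons, and Grin2a was then above sham by 0.064 in MCAO and 0.018 in MCAO+NRG1.

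The balance of Grin2a against Grin2b was followed as the difference of their log2 values within each array, which is free of the level of the array. Since the probes of the genes differ, its size does not give a ratio of transcripts and only its change between groups can be read. The mean was −0.85 ± 0.12 (SD, n = 4) in sham, −0.77 ± 0.27 (n = 3) in MCAO and −0.82 ± 0.015 (n = 3) in MCAO+NRG1. The change of 0.081 from sham to MCAO had a two-sided exact permutation p of 0.657, where the smallest p this design allows is 0.0286. The change of −0.053 from MCAO to MCAO+NRG1 had an exact permutation p of 1, with 0.1 the smallest allowed. MCAO 3 set both signs, since without it the changes were −0.075 and 0.10.

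Grin2c and Grin2d, the genes of the GluN2C and GluN2D subunits, lay lower in the occluded cortex by more than Grin2a and Grin2b did. GluN2C is best known from cerebellar granule cells, and GluN2D, which gives slowly closing channels, from interneurons of the adult forebrain. Grin2c measured 7.55, 7.997, 8.11 and 8.08 log2 in sham, 7.08, 7.20 and 7.72 in MCAO and, with NRG1, 7.17, 7.38 and 7.34. MCAO 3 alone among the occluded arrays lay above the lowest sham array, sham 1. Grin2d measured 6.15, 6.39, 6.62 and 6.44 log2 in sham, 5.65, 5.88 and 5.92 in MCAO and, with NRG1, 5.59, 6.13 and 5.93. All 6 occluded arrays lay below sham for Grin2d, although MCAO+NRG1 2 and sham 1 differed by little.

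Following MCAO, Grin2c differed from sham by −0.60 ± 0.19 log2 (limma adjusted p = 0.0600) and Grin2d by −0.58 ± 0.17 (limma adjusted p = 0.0507), so that both just missed the threshold. In MCAO+NRG1 against sham both passed, Grin2c falling by 0.64 ± 0.19 log2 or 1.56-fold (limma adjusted p = 0.0326) and Grin2d by 0.51 ± 0.17 or 1.43-fold (limma adjusted p = 0.0492). With Grik5, 3 of the 8 measured subunits were called lower in this comparison, where 15.8% of all probe sets were called lower and 17.3% in either direction. The F test over the 3 groups in limma passed the same 3 genes, with adjusted p of 0.0178 for Grik5, 0.0455 for Grin2c and 0.0497 for Grin2d, against 11.5% of all probe sets. A call in 1 comparison and a miss in the other does not show that MCAO and MCAO+NRG1 differ, and both comparisons share the 4 sham arrays.

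The Grin2c and Grin2d calls were close to the threshold. With arrays centred on their medians the differences from sham in MCAO+NRG1 were −0.37 ± 0.17 log2 for Grin2c and −0.25 ± 0.17 for Grin2d (limma adjusted p = 0.179 and 0.360). The Grin2c call was lost without sham 2, 3 or 4 or any of the 3 MCAO+NRG1 arrays, with limma adjusted p between 0.0590 and 0.113 and differences between −0.68 and −0.57 log2. The Grin2d call was lost without sham 2, 3 or 4, MCAO 2, or MCAO+NRG1 1 or 3, with limma adjusted p between 0.0568 and 0.215 and differences between −0.54 and −0.37 log2. Over all probe sets the MCAO+NRG1 calls fell from 3199 to 1094, 1348 and 1241 without sham 2, sham 3 and sham 4. In MCAO against sham both genes passed without sham 1 (limma adjusted p = 0.0168 and 0.0200) and without MCAO 3 (0.0135 and 0.0328).

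Gria3, the gene of the AMPA subunit GluA3, was the measured subunit with higher means in the occluded groups. It measured 10.41, 9.97, 9.87 and 9.91 log2 in sham, 10.32, 10.13 and 10.64 in MCAO and, with NRG1, 10.48, 10.10 and 10.36. The groups overlapped because of sham 1, which lay 0.37 log2 above the sham mean and above 4 of the 6 occluded arrays. The differences of 0.32 ± 0.18 log2 for MCAO (limma adjusted p = 0.247) and 0.28 ± 0.18 for MCAO+NRG1 (limma adjusted p = 0.281) did not pass the test. With arrays centred on their medians they were 0.48 ± 0.16 (limma adjusted p = 0.0921) and 0.54 ± 0.16 (limma adjusted p = 0.0581). The MCAO arrays then lay above every sham array, as for 10.6% of all probe sets. The margin was very small, with MCAO 2 at 10.251 and sham 1 at 10.247 log2, and the MCAO+NRG1 arrays still overlapped sham.

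**Figure D2:**
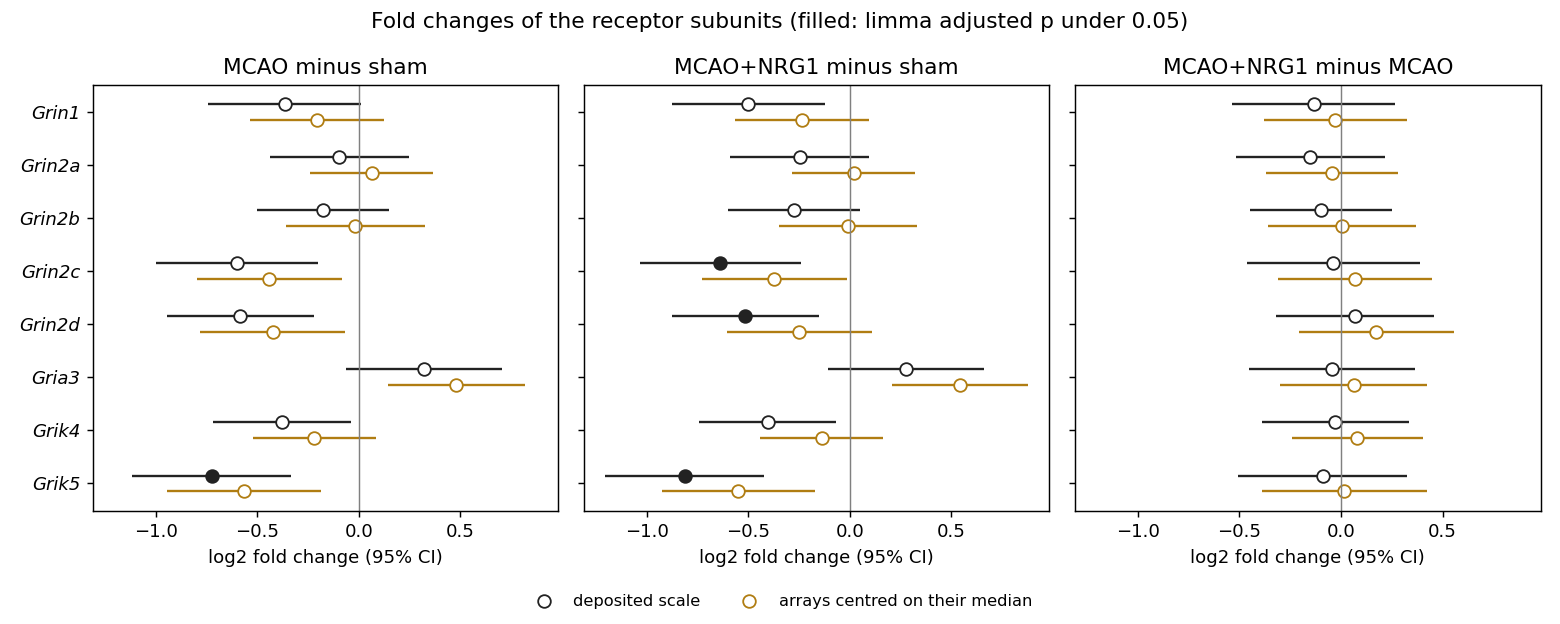
log2 fold change with its 95% confidence interval (x axis) of the 8 measured subunit genes (y axis) in the 3 comparisons, on the deposited scale (dark) and with each array centred on its median (ochre). Filled points have a limma adjusted p under 0.05, which only Grik5 in MCAO minus sham and Grik5, Grin2c and Grin2d in MCAO+NRG1 minus sham reach, all on the deposited scale, and every interval in MCAO+NRG1 minus MCAO includes 0.

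Between the occluded groups no subunit gene passed the test. This comparison asks whether NRG1 given before the occlusion altered the response of the receptor genes. The differences of MCAO+NRG1 from MCAO ran from −0.15 ± 0.17 log2 for Grin2a to 0.069 ± 0.18 for Grin2d, each with a limma adjusted p of 0.999. Of the 8 genes, 0 were called and 0 had an unadjusted p under 0.05 in limma, against 0.0054% (1 probe set) and 3.21% of all probe sets. The 95% intervals were −0.51 to 0.33 log2 for Grik5, −0.46 to 0.39 for Grin2c and −0.32 to 0.46 for Grin2d. All 8 intervals include 0, and each of them reaches to −0.32 log2 or lower and to 0.215 or higher. In all 8 genes the arrays of both occluded groups overlapped, as they did for most probe sets. Of all probe sets 4.27% lay wholly lower and 1.47% wholly higher in MCAO+NRG1.

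Read across the 8 measured genes, 7 had a mean below sham in MCAO, where 69% of all probe sets did, and 7 in MCAO+NRG1, where 75.9% did. The median log2 fold change of the 8 genes was −0.37 in MCAO against −0.16 for all probe sets, and −0.45 in MCAO+NRG1 against −0.24. With arrays centred on their medians these were −0.21 against −0.0050 and −0.19 against 0.027, with 6 of the 8 genes below sham in each comparison, where 50.7% and 46.6% of all probe sets were. The arrays of MCAO lay wholly below those of sham for 4 genes (Grin2b, Grin2d, Grik4 and Grik5), where 17.8% of all probe sets did so. In MCAO+NRG1 this held for 5 genes (Grin1, Grin2c, Grin2d, Grik4 and Grik5), where 34.2% of all probe sets did. With arrays centred it held for Grik4 and Grik5 in MCAO and for 0 genes in MCAO+NRG1, against 8.2% and 9.22%. The 6 other ionotropic receptor genes measured had a median log2 fold change of −0.062 in MCAO and −0.035 in MCAO+NRG1 on the deposited scale. The 8 genes were chosen with earlier results of these data known, so their medians do not stand for the whole receptor family.

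The centring also turned the direction of the calls over all genes, from 1038 lower and 203 higher to 197 lower and 407 higher in MCAO, and from 2920 and 279 to 288 and 707 in MCAO+NRG1. No subunit gene passed the test on the centred scale in any of the 3 comparisons or by the F test, against 3.26% of all probe sets in MCAO, 5.38% in MCAO+NRG1 and 4.05% by the F test. At an unadjusted p under 0.05 in limma, 4 of the 8 genes passed in MCAO and 3 in MCAO+NRG1 on that scale, against 25% and 25.8% of all probe sets. After quantile normalization of the deposited values Grik5 alone passed, in MCAO and in MCAO+NRG1 (limma adjusted p = 0.0495 and 0.0432), where 4.01% and 5.62% of all probe sets passed.

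Array by array, the median over the 8 genes of the difference from the sham mean lay between −0.16 and 0.075 log2 in sham. It was −0.57, −0.44 and −0.19 in the 3 MCAO arrays and −0.58, −0.37 and −0.43 in the 3 MCAO+NRG1 arrays. All 6 occluded arrays lay below the lowest sham array, MCAO 3 by the least. With arrays centred, sham 1 at −0.20 lay below MCAO 2, MCAO+NRG1 2 and MCAO+NRG1 3 at −0.19, −0.11 and −0.15. MCAO 1 and MCAO+NRG1 1 were the lowest of their groups on both scales.

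**Figure D3:**
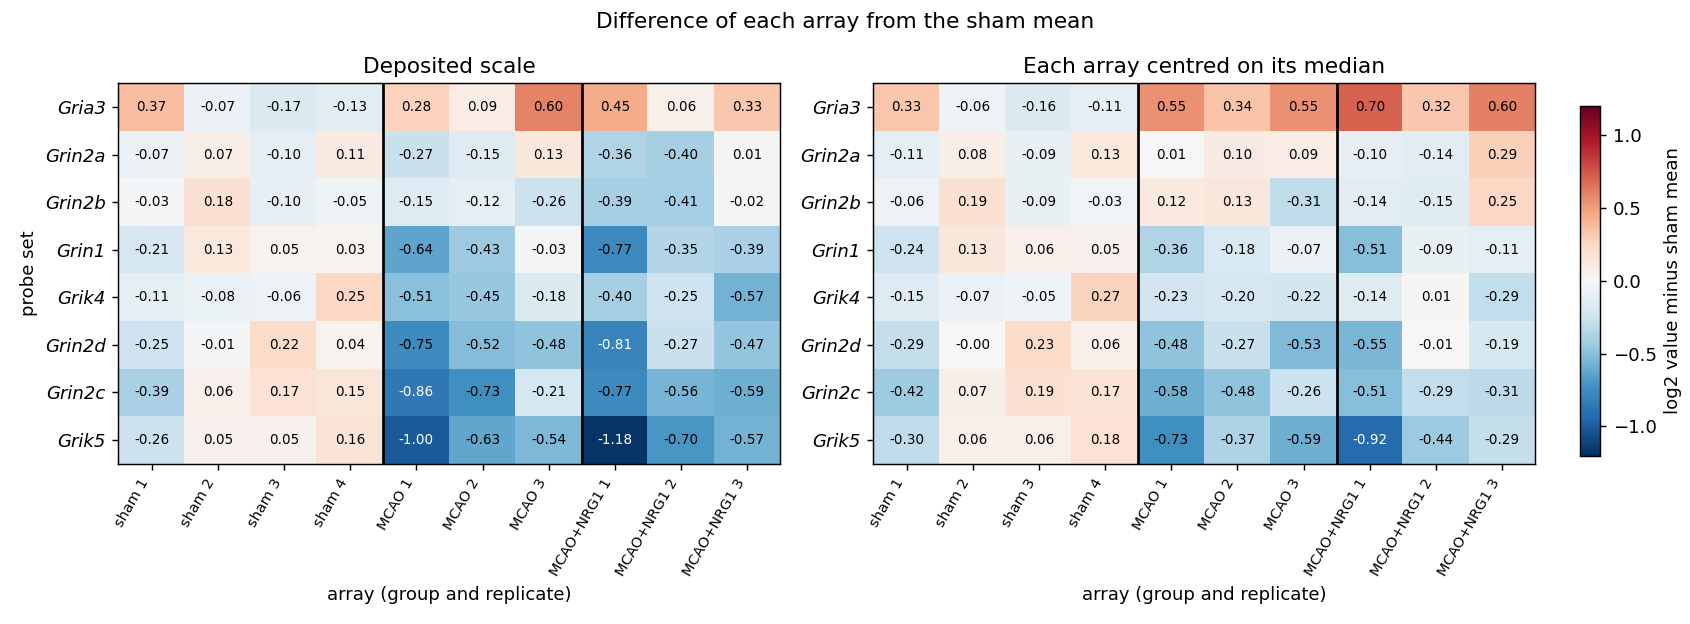
Difference of each array (x axis, group and replicate) from the sham mean in log2 units (colour and printed value) for the 8 measured subunit genes (y axis), on the deposited scale at left and with each array centred on its median at right. Grik5 is lowest in MCAO+NRG1 1, at −1.18, and Gria3 is above the sham mean in all 6 occluded arrays and in sham 1 on both scales.

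The patterns of the genes over the 10 arrays were compared as the root mean square difference between 2 genes. Each array was first centred on its median and each gene on its own mean. Among the 8 genes, Grin1 and Grin2c (0.14 log2) and Grin2a and Grin2b (0.14) were closest, and Gria3 and Grik5 (0.62) were farthest apart. Among the 12636 other probe sets above background, those closest to Grik5 were Nrxn2 at 0.067, a presynaptic neurexin gene, Adgrb2 at 0.075, an adhesion G protein-coupled receptor gene, and Celsr2 at 0.080, a cadherin receptor gene, against a median of 0.40. In MCAO they differed from sham by −0.69, −0.78 and −0.65 log2 (limma adjusted p = 0.0272, 0.0222 and 0.0537). These differences from sham are on the deposited scale and hold the offset of the arrays given above, which the root mean square differences do not. Nrxn2, Adgrb2 and Celsr2 were picked for likeness to Grik5 over these same arrays, so their differences near that of Grik5 follow from the choice. The Nrxn2 and Adgrb2 calls were each lost on the centred scale (limma adjusted p = 0.0682 and 0.0503) and without sham 2, sham 3, sham 4, MCAO 1 or MCAO 2, with limma adjusted p up to 0.101 and 0.0924, and Celsr2 passed without sham 1, MCAO 3 or MCAO+NRG1 1, with limma adjusted p down to 0.0168.

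Genes that work with the receptors were read from lists. Of the 6 other ionotropic receptor genes measured, 0 passed in limma in any comparison. Over all probe sets 6.7% passed in MCAO and 17.3% in MCAO+NRG1 against sham, and 0.0054% between the occluded groups. The list median was −0.062 log2 in MCAO and −0.035 in MCAO+NRG1 against sham. The 2 genes of this list with the smallest p in the F test were Gria4, the gene of the fourth AMPA subunit GluA4, at 0.37 ± 0.18 log2 in MCAO (limma adjusted p = 0.191, and 0.0453 at 0.51 log2 without sham 1), and Grik2, the gene of the kainate subunit GluK2, at 0.27 ± 0.21 (limma adjusted p = 0.409). Grin3b was not above background.

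Auxiliary subunits are membrane proteins that bind AMPA or kainate receptors and set their trafficking and gating. Of 14 listed genes 13 were measured, with 2 lower in MCAO and 5 lower in MCAO+NRG1 against sham in limma, and 0 higher, beside 5.61% and 15.8% of all probe sets lower and 1.1% and 1.51% higher. Gsg1l, whose protein slows the recovery of AMPA receptors, fell by 0.64 log2 in MCAO and 0.70 in MCAO+NRG1 (limma adjusted p = 0.0292 and 0.0115). Cnih2, a cornichon gene that prolongs AMPA receptor opening, fell by 0.65 and 0.77 log2 (limma adjusted p = 0.0410 and 0.0126). Cacng4 and Cacng7, which encode proteins of the stargazin family, fell by 0.58 and 0.50 log2 in MCAO+NRG1 (limma adjusted p = 0.0244 and 0.0293), and Shisa7 was the fifth. After centring, 0 genes passed in MCAO and 1, Cnih2, in MCAO+NRG1. Over all probe sets 1.06% and 1.56% were then called lower and 2.2% and 3.82% higher. The MCAO call of Gsg1l was lost without sham 2, 3 or 4 or MCAO 1 or 2, and that of Cnih2 without these or MCAO+NRG1 1 or 3, with limma adjusted p up to 0.114 and 0.152. In MCAO+NRG1 the calls of both were lost without MCAO+NRG1 3 (limma adjusted p = 0.0507 and 0.0567). The call of Cacng4 was lost without sham 2 or 3 or MCAO+NRG1 1 or 3 and that of Cacng7 without sham 2, 3 or 4 or MCAO+NRG1 2 or 3, with limma adjusted p up to 0.112 and 0.1001.

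Scaffold proteins and kinases anchor the receptors in the postsynaptic density. Of 22 listed genes 19 were measured, with 2 lower in MCAO and 6 lower in MCAO+NRG1 against sham in limma, beside 5.61% and 15.8% of all probe sets, and 0 higher. Dlgap3, also called SAPAP3, which links PSD-95 to Shank proteins, fell by 0.95 log2 in MCAO and 1.11 in MCAO+NRG1 (limma adjusted p = 0.0115 and 0.00198). It was the 1 scaffold gene that also passed with arrays centred on their medians, in both comparisons. On that scale 1.06% and 1.56% of all probe sets were called lower. The MCAO call of Dlgap3 was lost only without MCAO 1 (limma adjusted p = 0.0507). Shank2, the gene of a scaffold of the postsynaptic density, fell by 0.60 and 0.54 log2 (limma adjusted p = 0.0306 and 0.0245). Homer3 and Dlgap4 fell by 0.60 and 0.50 log2 in MCAO+NRG1 (limma adjusted p = 0.0355 and 0.0369), and Dlg4 and Shank1 were the other two. The Shank2 call was lost in MCAO without sham 2, 3 or 4 or MCAO 1 or 2, and in MCAO+NRG1 without sham 2 or 4 or any MCAO+NRG1 array, with limma adjusted p up to 0.0978 and 0.0953. Those of Homer3 and Dlgap4 were lost without sham 2, 3 or 4 or any MCAO+NRG1 array, with limma adjusted p up to 0.148 and 0.116.

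Of 16 listed genes of glutamate transport and metabolism 14 were measured, and 1 passed in limma, Slc17a8, the gene of the vesicular transporter VGLUT3, which fell by 0.55 log2 in MCAO+NRG1 against sham (limma adjusted p = 0.0385), where 15.8% of all probe sets were called lower. That call was lost with arrays centred on their medians, at −0.29 log2 and a limma adjusted p of 0.265, and without sham 2, 3 or 4 or any MCAO+NRG1 array, with limma adjusted p up to 0.192. The list medians in MCAO and MCAO+NRG1 were −0.22 and −0.39 log2 for auxiliary subunits, −0.20 and −0.30 for scaffolds and kinases and −0.13 and −0.21 for transport and metabolism, beside −0.16 and −0.24 for all probe sets. In MCAO+NRG1 against MCAO 0 genes of the 4 lists passed, where 1 of all 18511 probe sets did. Dlgap3, Shank2, Shank1, Dlg4, Cnih2 and Cacng7 are on lists that the study drew from these arrays, so they lend no independent support to the direction of these counts. The study placed Cacng7 in a cluster whose genes it described as lowered by MCAO and brought back towards baseline by NRG1. Here, on the deposited scale, Cacng7 differed from sham by −0.44 log2 in MCAO and −0.50 in MCAO+NRG1. Between the occluded groups it differed by −0.060 log2 (limma adjusted p = 0.999). Centring the arrays raised every difference between the occluded groups by 0.11 log2, so that of Cacng7 was then above 0. It did not pass the test on either scale, so its direction is not settled here.

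**Figure D4:**
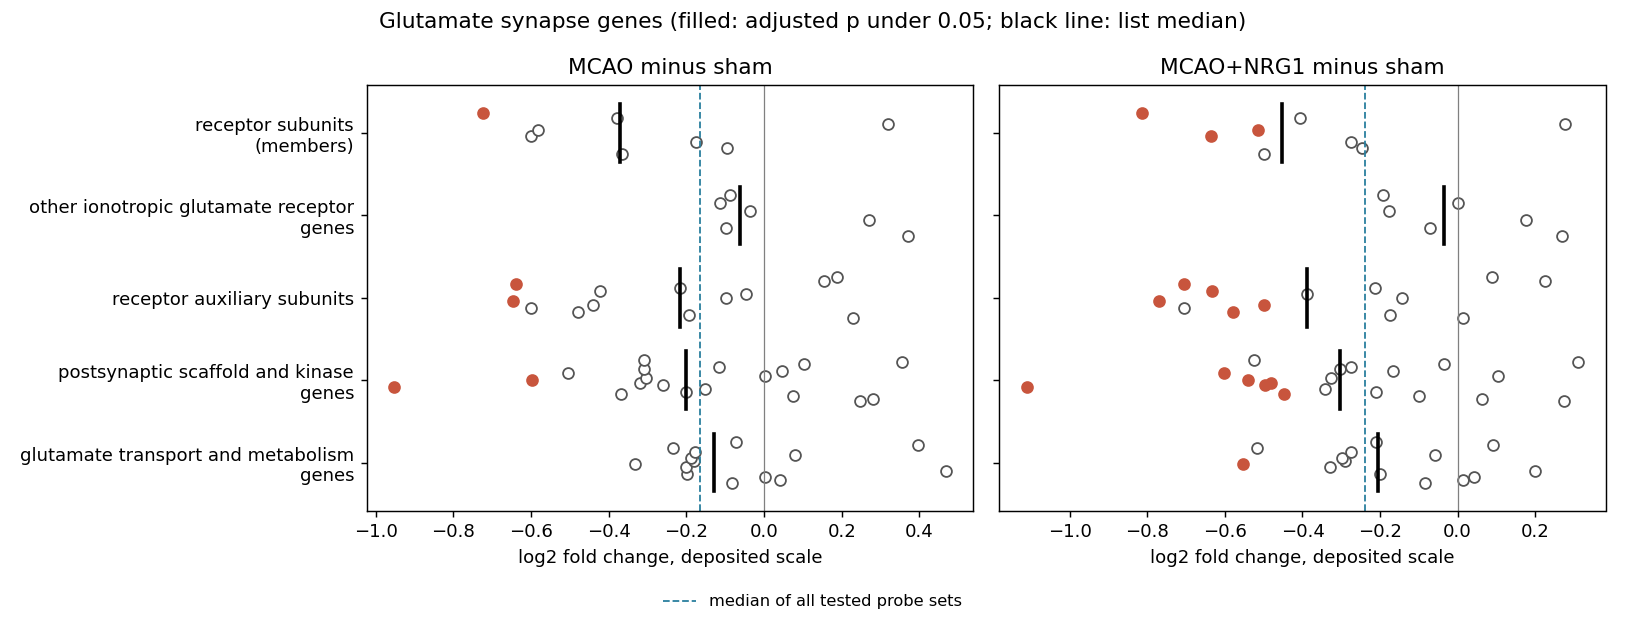
log2 fold change against sham on the deposited scale (x axis) of each measured gene of the 8 receptor subunits and of 4 further lists (y axis), for MCAO at left and MCAO+NRG1 at right. Filled points have a limma adjusted p under 0.05, black lines are list medians and the dashed line is the median of all tested probe sets, −0.16 and −0.24. Every filled point lies below 0. The 8 subunit genes, chosen with earlier results of these data known, have the lowest list median, −0.37 and −0.45. The 6 other ionotropic receptor genes, of the same receptor family, have −0.062 and −0.035.

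Markers of cell types were read beside the subunit genes. The mean level of 10 pan-neuronal markers ran from 11.22 to 11.29 log2 in sham, 11.10 to 11.43 in MCAO and 11.07 to 11.27 in MCAO+NRG1, and 0 passed in limma against sham. Of 6 interneuron markers 1, Sst, was lower in each occluded group, with list means of 8.90 to 9.06, 8.78 to 9.04 and 8.79 to 8.83 log2. Of 5 cortical excitatory markers 0 passed in MCAO and 1, Neurod2, was lower in MCAO+NRG1. Of 7 astrocyte markers, 7 oligodendrocyte and precursor markers and 6 microglia markers 0 passed. Of 5 endothelial markers 1, Vwf, was lower in MCAO and all 5 in MCAO+NRG1, with list means of 7.36 to 7.63, 6.62 to 7.12 and 5.83 to 7.004 log2. Of 7 markers of striatal medium spiny neurons, which lie beneath the cortex, 1, Tac1, was higher in MCAO, with list means of 7.95 to 8.53, 8.57 to 9.10 and 7.69 to 8.80 log2. These counts stand beside 5.61% of all probe sets lower and 1.1% higher in MCAO, and 15.8% and 1.51% in MCAO+NRG1. On the centred scale the calls of Sst, Vwf and Neurod2 were lost. Of the 5 endothelial markers 1, Cldn5, was still lower in MCAO+NRG1 (limma adjusted p = 0.0236). Tac1 was still higher in MCAO, and the cortical excitatory marker Neurod6 was higher in MCAO+NRG1 (limma adjusted p = 0.0436). Centred, 1.06% of all probe sets were lower and 2.2% higher in MCAO, and 1.56% and 3.82% in MCAO+NRG1. All measured markers lay above background, and the part of these shifts in the values of the subunit genes was not tested.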

How the data were processed

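RNA of the left cortex was measured in 10 rats. The authors deposited log2 RMA values of 36685 probe sets, made in the oligo package (versions not stated). Groups came from the sample titles. The platform annotation lists 1 symbol for 18511 probe sets, several for 575 and none for 17599, and 18394 of the first were found in the GRCr8 gene table. It gives no assembly, so probe set positions were left out.

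The 3 groups entered 1 fit over the 18511 probe sets in limma 3.58.1 (R 4.3.3; lmFit, contrasts.fit, eBayes with defaults), with the 3 pairwise contrasts and the F test across groups, and p-values were adjusted by Benjamini-Hochberg over all of them, with calls under 0.05. The fit was tested on simulated data. Each array is labelled as a biological replicate, and their number limits the precision.

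The subunit genes, lists and tests were chosen with earlier results of these data known. All subunit genes are named, and of each list the called genes, at most 4 by p, or the 2 of smallest F test p where none was called. Shisa7, Dlg4, Shank1 and single cell type markers were named after their values were seen. As alternatives, arrays were centred on their medians or quantile normalized, dim probe sets were dropped, every probe set of the array was tested, 1 probe set was kept per gene, trend and robust settings, array weights or a replicate block were used, only 2 groups were fitted, and each array was left out. Centring over every probe set of the array was added after the data were seen.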

Additional observations from a re-analysis of the deposited data

Results flagged for a closer look

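Grik4 in sham 4 measured 7.51 log2, apart from the other 3 sham arrays, of which the nearest was at 7.20, so that the gap took a share of 0.851 of the range of the group. Of the 9 sets of sham values examined in this way 1 was set apart, and chance sets apart about 1 in 20. The sets come from the same 4 sham arrays and are not independent. Sham 1, which this rule did not flag, was the lowest sham array for Grin1, Grin2c, Grin2d, Grik4 and Grik5 and the highest for Gria3. Without sham 4, Grik4 in MCAO minus sham was −0.29 log2 and stayed short of the threshold.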

How the results depend on the processing

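The number of subunit genes called in MCAO minus sham, MCAO+NRG1 minus sham and the F test was 1, 3 and 3. It was 0, 0 and 0 with arrays centred on their medians and 1, 1 and 1 after quantile normalization. Without dim probe sets it was 2, 3 and 3, beside 905, 2446 and 1683 of all 12637 tested. When all probe sets of the array were tested it was 0, 1 and 0, beside 307, 2222 and 908 of 36685. With array weights it was 5, 6 and 5, beside 7120, 7820 and 8075 of 18511, where the main fit called 1241, 3199 and 2123. Centring over all probe sets, chosen after seeing the data, gave 0, 1 (Gria3, higher) and 0. Leaving out single arrays gave 0 to 5 in each of the 3 and 0 to 0 in MCAO+NRG1 minus MCAO, where no alternative called a gene. The calls over all probe sets moved too, for example to 3357, 4796 and 3798 without sham 1 and to 103, 1094 and 304 without sham 2. Without MCAO 3 there were 5 calls in each (Grin1, Grin2c, Grin2d, Grik4 and Grik5). The calls over all probe sets in that fit are not set beside them, so the 5 calls are not a result about the subunit genes. The cause was not tested.

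Same-numbered arrays share only a number: of 9 pairs, 3 had deviations that correlated above 0.1 (−0.19 to 0.22). With the replicate number as a block the counts were 0, 1 and 1, and over all probe sets 232, 1432 and 498 against 1241, 3199 and 2123.

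Of the fold changes of the 8 genes, 23 changed sign outside the fits that left out an array. In MCAO+NRG1 minus MCAO these were, with arrays centred, Grin2b 0.0069, Grin2c 0.069, Gria3 0.062, Grik4 0.079 and Grik5 0.016, after quantile normalization Grin2c 0.052, Gria3 0.029, Grik4 0.062 and Grik5 0.0060, with array weights Grin2c 0.077, Gria3 0.14 and Grik4 0.018, and with centring over all probe sets Grin2b 0.013, Grin2c 0.076, Gria3 0.068, Grik4 0.086 and Grik5 0.023. In MCAO minus sham Grin2a became 0.064 by centring, and Grin2a 0.16 and Grin2b 0.076 by centring over all probe sets. In MCAO+NRG1 minus sham these were 0.018, 0.12 and 0.090. Leaving out single arrays gave, in MCAO+NRG1 minus MCAO, −0.27 to 0.034 for Grin1, −0.17 to 0.16 for Grin2c, −0.054 to 0.21 for Grin2d, −0.16 to 0.094 for Gria3, −0.11 to 0.074 for Grik4 and −0.23 to 0.092 for Grik5. The change of Grin2a minus Grin2b ran from −0.075 to 0.18 and from −0.15 to 0.10. Another probe set per gene could not be tried, since each gene has 1, and Gria1 minus Gria2 could not be formed.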
